A study of Homo sapiens with 8 samples.

Results

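The transcript profile of PANC1 cells given a CRISPR/Cas9 guide against BAP1 was compared with that of untargeted PANC1 cells, neither of them irradiated. PANC1 is an established human pancreatic cancer cell line. The comparison used the 2 arrays labelled sgBAP1 (BAP1 deletion genotype, no irradiation) and the 2 arrays labelled control (wild-type genotype, untreated), out of 8 PrimeView arrays in the series, and all 49293 probe sets that are not array controls. These stood for 18132 genes, each represented by its brightest probe set with a single gene symbol. The other 4 arrays were irradiated with 10 Gy and collected 3 days later, 2 without the guide (IR) and 2 with it (sgBAP1 + IR). They entered the fit to estimate the spread between arrays, and they gave a second look at the guide effect in arrays that the main comparison did not use.

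BAP1 is a deubiquitinase that takes ubiquitin off histone H2A, opposing the Polycomb repressive complex that puts it there. It works with ASXL proteins, which activate it, and it binds the chromatin factor HCFC1, the glycosyltransferase OGT and the DNA-binding FOXK proteins. It is a tumour suppressor, and loss of 1 copy is frequent in pancreatic cancer.

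Several features limit these groups as a model. The study describes PANC1 as a line that keeps a single BAP1 copy, and wild type here means not targeted. It describes 1 BAP1 guide, delivered by transfection with puromycin selection, and a non-targeting guide as control, whereas the label of the control arrays says only wild type. Loss of BAP1 and effects of the procedure, or of the guide at other sites, cannot be told apart. The BAP1 transcript was not analysed here, so the targeting was not checked in these values. The study used western blotting and indel sequencing to check the targeting. No source says whether the arrays of a group stem from separate cultures, so p-values measure the spread between these samples, which may be technical.

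Values are log2 expression levels, and a difference of 1 log2 is a 2-fold change. Pearson correlations across probe sets were 0.998 to 0.9985 within groups and 0.992 to 0.993 between control and sgBAP1 arrays. Paired within a group, the arrays differed per probe set by a median of 0.0839 log2 for control and 0.0731 log2 for sgBAP1. A gene was called at a limma adjusted p under 0.05 (Benjamini-Hochberg over all probe sets) and a fold change over 1.5. Most of the epithelial and mesenchymal markers chosen for the label were bright in control. The keratins KRT18, KRT8 and KRT19 averaged 13.5, 12.7 and 10.7 log2, the epithelial adhesion gene EPCAM 9.89, DSP 9.6 and vimentin, VIM, 14.2. The keratin KRT7 (5.88) and the cadherin CDH2 (6.30) were dimmer, below the median of 6.84 over all genes. None of these markers was called, with KRT7 just short of the fold threshold at 0.56 ± 0.07. Of 9 acinar and 9 endocrine markers 0 were called, with limma changes between -0.34 and 0.51. Among 11 immune markers CD68 rose (0.93 ± 0.08), and among 12 fibroblast and endothelial markers THY1 rose (0.90 ± 0.07). PTPRC and MS4A1, which define leukocytes and B cells, were uncalled at 0.16 and -0.30, and the fibroblast and endothelial markers DCN and KDR at -0.20 and 0.43. These 4 were named after their values were seen, as the highest and lowest uncalled members of their lists. Of these lists 7 of 11 and 6 of 12 genes lay below 5 log2 in both groups. Whether other cells contribute was not tested, and in bulk RNA more cells of a type and more RNA per cell cannot be told apart.

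Start-site sequences are shown first for those of the 25 largest rises and 25 largest falls that hold a match to the site of an inducible transcription factor within the 150 bases before the gene's start. They come from RefSeq (GRCh38.p14) and are printed 5′ to 3′ along the gene's strand, ending at the base before the start. Capitals mark the matches to AP-1 (TGANTCA), the cyclic AMP response element CRE (TGACGTCA), the NF-kB site, the serum response element, the interferon-stimulated response element ISRE (GAAA repeated after any 2 bases) and the TATA box (TATAAA).
CXCL8 (chr4:73740419-73740568, plus strand): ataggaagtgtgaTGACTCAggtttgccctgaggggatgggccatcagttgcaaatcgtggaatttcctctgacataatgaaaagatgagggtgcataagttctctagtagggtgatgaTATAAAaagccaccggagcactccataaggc
IL11 (chr19:55370464-55370613, minus strand): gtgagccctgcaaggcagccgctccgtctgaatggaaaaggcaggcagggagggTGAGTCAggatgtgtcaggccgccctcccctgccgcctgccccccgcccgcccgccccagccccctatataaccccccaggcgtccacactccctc
HDAC9 (chr7:18495599-18495748, plus strand): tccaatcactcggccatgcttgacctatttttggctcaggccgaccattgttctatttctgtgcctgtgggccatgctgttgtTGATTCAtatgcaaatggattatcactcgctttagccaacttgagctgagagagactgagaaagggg
ISG20 (chr15:88638866-88639015, plus strand): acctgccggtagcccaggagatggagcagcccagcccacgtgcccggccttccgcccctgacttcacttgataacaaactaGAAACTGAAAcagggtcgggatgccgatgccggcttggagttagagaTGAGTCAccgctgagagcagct
MAFF (chr22:38201844-38201993, plus strand): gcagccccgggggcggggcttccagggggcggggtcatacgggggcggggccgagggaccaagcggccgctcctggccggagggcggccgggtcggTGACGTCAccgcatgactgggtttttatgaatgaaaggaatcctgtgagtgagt
CCL20 (chr2:227813692-227813841, plus strand): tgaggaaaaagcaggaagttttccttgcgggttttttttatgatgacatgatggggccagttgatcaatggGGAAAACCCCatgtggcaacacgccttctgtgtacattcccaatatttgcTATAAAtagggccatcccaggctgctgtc
CXCL1 (chr4:73869243-73869392, plus strand): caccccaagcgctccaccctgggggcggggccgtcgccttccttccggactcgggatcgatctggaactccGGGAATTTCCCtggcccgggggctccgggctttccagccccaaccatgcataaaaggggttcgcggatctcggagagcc
EGR1 (chr5:138465329-138465478, plus strand): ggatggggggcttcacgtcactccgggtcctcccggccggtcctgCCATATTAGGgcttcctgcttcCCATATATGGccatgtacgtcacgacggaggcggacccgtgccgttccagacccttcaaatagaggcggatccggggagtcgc
GPC6 (chr13:93226657-93226806, plus strand): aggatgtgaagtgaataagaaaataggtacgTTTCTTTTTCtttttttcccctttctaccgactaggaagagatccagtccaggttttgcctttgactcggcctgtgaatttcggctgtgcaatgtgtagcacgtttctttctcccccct

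The AP-1 matches lay at -137 in CXCL8, -96 in IL11, -67 in HDAC9 and -22 in ISG20, counted from the start site. ISG20 also had an ISRE at -69, MAFF a CRE at -54, and EGR1 serum response elements at -105 and -83. The NF-kB match of CCL20 lay at -79, and CXCL1 had a pair of overlapping matches from -79. GPC6 belongs to the falls, and its ISRE match at -119 lies in a pyrimidine run. In CXCL8 the unmarked stretch ggaatttcct differs only in its last base from the match GGAATTTCCC of CXCL1. Only exact matches are marked, so an unmarked stretch is not shown to lack a site. A match describes letters and is not shown to be a bound site.

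With the guide, 421 genes rose and 474 fell, which is 2.32% and 2.61% of the genes tested. Most changes were modest. Among the rises 95 exceeded 2-fold and 8 exceeded 4-fold, with a median of 0.77 log2, and among the falls 70 exceeded 2-fold and 2 exceeded 4-fold, with a median of -0.72. The median over all genes was 0.00. As a description of the genes at the threshold, the rises closest to it were CD9 (0.585, called) and TMEM54 (0.584, not called), and the falls closest to it were P4HTM (-0.586, called) and PCCA (-0.585, not called).

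**Figure D1:**
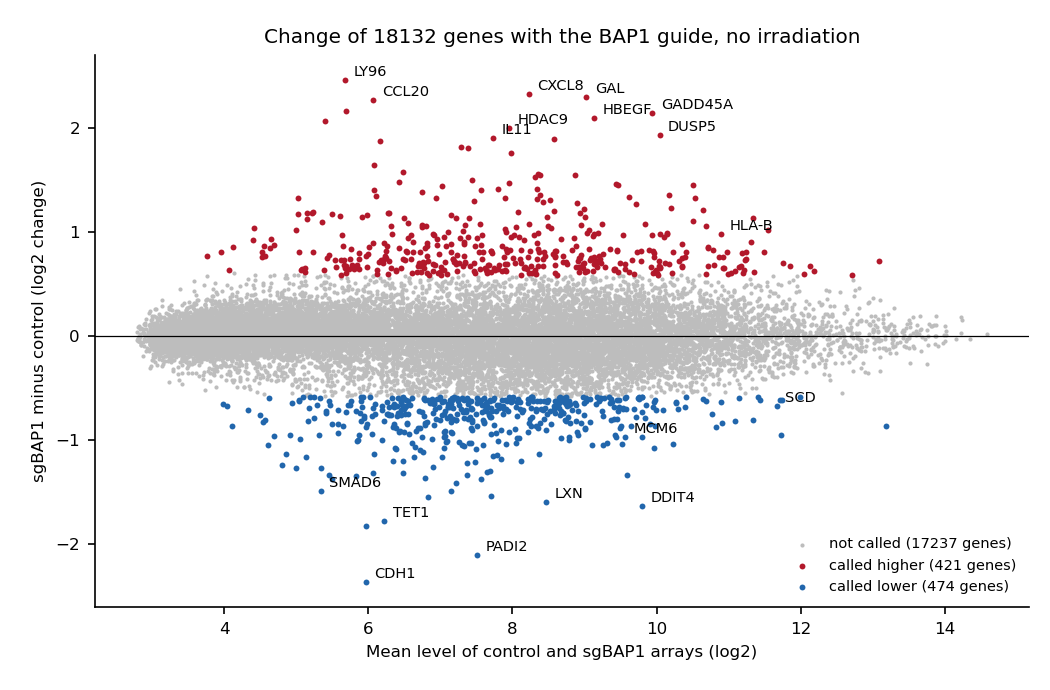
Log2 change of 18132 genes (sgBAP1 minus control, vertical axis) against their mean log2 level on the 4 arrays (horizontal axis). The 421 genes called higher and the 474 called lower spread over the whole range of levels, with LY96 and CDH1 at the extremes.

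LY96, CXCL8 and GAL had the largest rises. LY96 encodes MD-2, the partner of TLR4 in sensing lipopolysaccharide, and measured 4.43 and 4.48 log2 in control and 6.93 and 6.89 in sgBAP1. CXCL8, the neutrophil attractant interleukin-8, measured 7.12 and 7.03 against 9.38 and 9.40. Galanin, GAL, a neuropeptide, measured 7.92 and 7.84 against 10.18 and 10.17. For each of these genes the groups did not overlap, which with 2 arrays a group was so for 62.6% of all genes, and the arrays of a group lay within 0.1 log2 of each other. The limma changes were 2.46 ± 0.05 for LY96, 2.32 ± 0.06 for CXCL8 and 2.29 ± 0.07 for GAL (SE, n = 2 arrays per group). LY96 started near the lower quartile of control values (4.30 and 4.34), where fold changes are least certain, and the arrays carry no detection flags.

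CCL20, which attracts cells bearing CCR6, measured 4.60 and 5.28 in control and 7.17 and 7.24 in sgBAP1, a change of 2.26 ± 0.19. Its control arrays differed by more than those of the other leading genes. GADD45A, a stress-induced growth arrest gene, measured 8.90 and 8.85 against 10.998 and 11.03. The EGF receptor ligand HBEGF measured 8.12 and 8.05 against 10.17 and 10.18. Both genes stood well above the floor of the signal in control, and both changed more than 4-fold (2.14 ± 0.05 and 2.09 ± 0.06). The collagenase MMP1 measured 4.46 and 4.26 against 6.45 and 6.40. The deacetylase gene HDAC9 measured 6.97 and 6.95 against 8.95 and 8.96. DUSP5, a nuclear phosphatase of the kinase ERK, measured 9.05 and 9.11 against 11.03 and 10.98. The limma changes were 2.06 ± 0.08 for MMP1, 1.995 ± 0.05 for HDAC9 and 1.93 ± 0.05 for DUSP5.

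The cytokine IL11 measured 6.81 and 6.76 in control and 8.68 and 8.69 in sgBAP1. The secreted glycoprotein gene STC1 measured 7.66 and 7.59 against 9.54 and 9.50. The immediate early transcription factor EGR1 measured 6.50 and 6.27 against 8.24 and 8.15. Each was more than 3-fold higher in sgBAP1, with limma changes of 1.90 ± 0.07, 1.89 ± 0.10 and 1.81 ± 0.11. The remaining members of the 25 largest rises changed by between 1.47 and 2.17. They were MAP3K7CL, the keratin-associated protein KRTAP2-3, the serum-induced kinase SGK1, the G-protein regulator RGS2, the histone gene H2BC4, the small Maf factor MAFF, the antiviral genes IFIT2 and ISG20, the chemokine CXCL1, the glutaminyl cyclase QPCT, the AMP deaminase AMPD3, the stress factor DDIT3 and the transglutaminase TGM2. KRTAP2-3 and H2BC4 belong to families of near-identical genes, and their probe sets may also read relatives.

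E-cadherin, an adhesion protein of epithelia, is encoded by CDH1, which led the falls. It measured 7.21 and 7.09 in control and 4.57 and 4.99 in sgBAP1 (-2.37 ± 0.13). A second CDH1 probe set, near the floor, measured 3.41 and 3.62 against 3.55 and 3.70 and was not called (0.11 ± 0.09), so the fall rests on the brighter probe set. PADI2, an enzyme that converts protein arginine to citrulline, measured 8.62 and 8.51 against 6.59 and 6.32. TET1, which oxidises methylated cytosine, measured 7.13 and 7.09 against 5.33 on both sgBAP1 arrays. DDIT4, an inhibitor of mTORC1, measured 10.63 and 10.61 against 9.003 and 8.96. DDIT4 was the brightest of the 25 largest falls, and its groups were separated by more than 1.6 log2. The changes were -2.11 ± 0.09 for PADI2, -1.78 ± 0.06 for TET1 and -1.64 ± 0.05 for DDIT4.

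The remaining falls among the 25 ranged from -1.83 to -1.26. They included the carboxypeptidase inhibitor LXN (9.36 and 9.18 against 7.70 and 7.64), the BMP-inhibitory SMAD6 (6.06 and 6.12 against 4.67 and 4.52) and the Notch-modifying glycosyltransferase LFNG (7.86 and 7.93 against 6.47 and 6.33). Receptors were represented by RET (-1.34 ± 0.18) and EPHA7 (-1.27 ± 0.07). RIBC2 (-1.42) and DNAAF3 (-1.37), which serve motile cilia, fell with complement C5 (-1.35), the lysosomal ribonuclease RNASET2 (-1.34), the iron regulator HFE (-1.297) and the glutathione transferase GSTA4 (-1.26). The others were ANKRD35, PRRT2, GALNT18, RNFT2, RAB26, CCDC85B, the glypican GPC6, the protocadherin PCDH18, HSD17B8 and GLB1L. In RET, GPC6, EPHA7, SMAD6 and CCDC85B a further, uncalled probe set pointed the other way. The highest adjusted p among the 50 genes was 0.00247.

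**Figure D2:**
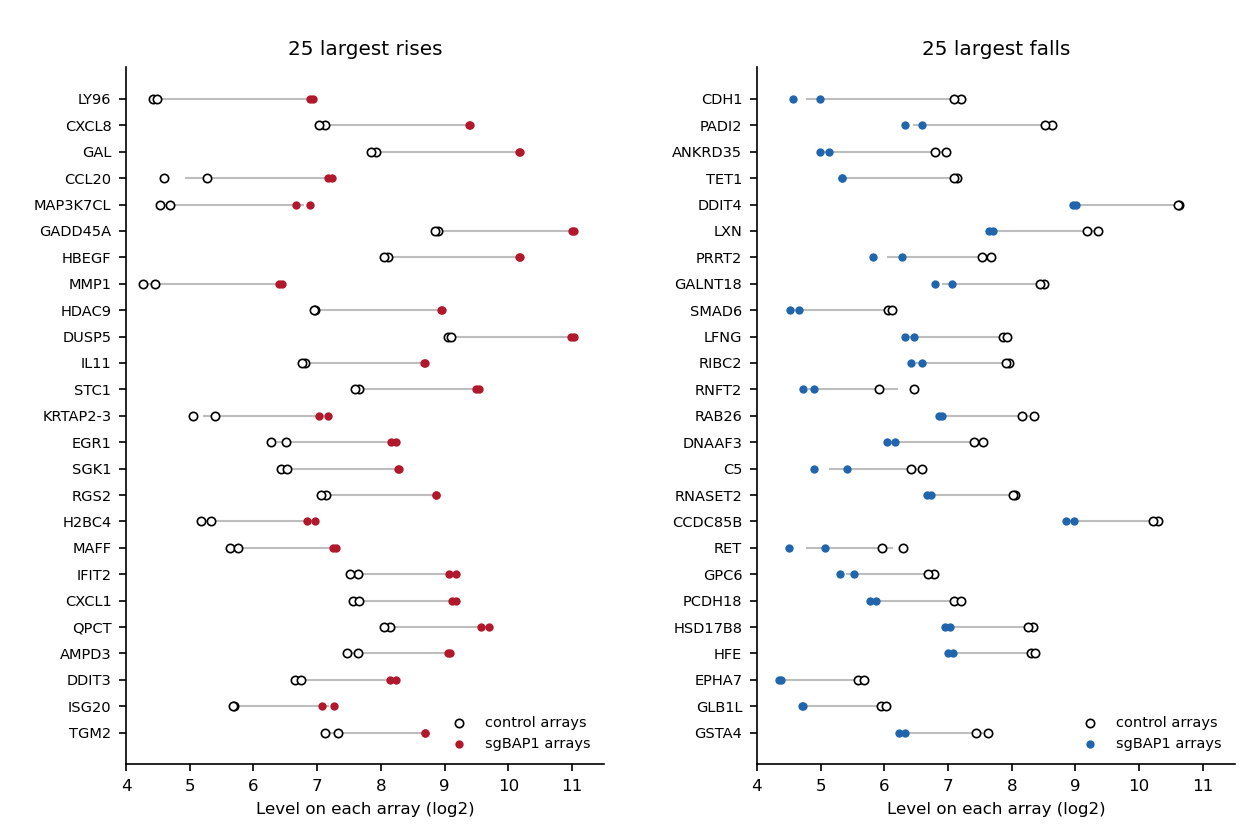
Log2 level on each array (horizontal axis) of the 25 largest rises and 25 largest falls, with the 2 control arrays as open circles, the 2 sgBAP1 arrays as filled circles and a line joining the group means. In each of the 50 genes both sgBAP1 arrays lie on the same side of both control arrays, which follows from naming called genes, and CCL20, RNFT2, C5 and RET have the widest spread within a group.

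Groups of genes were then described by counts and medians, beside a median of 0.00 over all genes. There were 58 lists with 1334 measured genes, of which 103 rose and 57 fell. The lists were drawn up with earlier results known, so these shares (7.72% and 4.27%) are not set against the background as a finding. Over all genes 2.32% were called higher and 2.61% lower, so a short list without a call lies near that share.

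Of 13 measured partners of BAP1 0 were called, which is near the share over all genes (2.32% higher and 2.61% lower). Among them 5 lay above 0 and the median was -0.02. ASXL1 changed by -0.24 ± 0.07, ASXL2 by -0.01 ± 0.05, HCFC1 by -0.19 ± 0.05, OGT by 0.09 ± 0.08, FOXK2 by -0.05 ± 0.06 and BARD1, the partner of BRCA1, by -0.28 ± 0.05. Of 26 Polycomb genes 1 fell, CBX7 (-0.66 ± 0.07), which reads methylated histone H3, while 7 lay above 0 and the median was -0.20. The other CBX7 probe set was uncalled at 0.28 ± 0.14, and the mean of both was -0.19 without a call. The H3 methyltransferase subunits EZH2 (-0.31 ± 0.06) and SUZ12 (0.03 ± 0.05) were not called. Among 39 histone methyltransferases and demethylases 1 fell, the H3K9 methyltransferase EHMT2 (-0.74 ± 0.05).

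Of 13 DNA methylation genes 2 fell, TET1 and DNMT3A, a de novo DNA methyltransferase. DNMT3A measured 8.54 and 8.60 against 7.998 and 7.97 (-0.59 ± 0.06). It stood at the fold threshold and lost its call after a further quantile normalisation (-0.55), after median centring (-0.58) and without control replicate 2 (-0.56) or sgBAP1 replicate 2 (-0.57), and its other probe sets had either sign. TET2 (-0.36 ± 0.10), TET3 (-0.23 ± 0.08), DNMT1 (-0.22 ± 0.05) and DNMT3B (0.34 ± 0.08) were not called. Among 18 deacetylases HDAC9 rose and 5 fell. The tubulin deacetylase HDAC6 measured 8.43 and 8.45 against 7.39 and 7.40 (-1.04 ± 0.06), and 3 of its other 6 probe sets were called lower as well. HDAC8 (-0.75 ± 0.07), HDAC4 (-0.70 ± 0.09) and the mitochondrial SIRT5 (-0.64 ± 0.06) and SIRT3 (-0.63 ± 0.05) completed the falls. Averaged over their probe sets, HDAC9 (0.55), HDAC8 (-0.27), HDAC4 (-0.13), SIRT5 (-0.54), SIRT3 (-0.55) and DNMT3A (-0.03) were no longer called, and probe sets of opposite sign stood beside HDAC9, HDAC8, HDAC4 and DNMT3A.

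Feedback genes of the MAP kinase pathway held 7 rises and no falls. These genes encode phosphatases, Sprouty inhibitors and factors that ERK signalling induces and that in turn restrain or carry it. Of 24 measured 7 were higher, 0 were lower, all 24 lay above 0 and the median was 0.34. After DUSP5 came DUSP1 (8.47 and 8.39 against 9.64 and 9.50), DUSP6 (8.55 and 8.56 against 9.62 and 9.52) and SPRY2 (8.68 and 8.61 against 9.59 and 9.61). In these 3 genes the control arrays lay within 0.1 log2 of each other. Each sgBAP1 array was higher than both, which follows from naming called genes. Groups did not overlap, in either direction, in 62.6% of all genes. SPRY4 (0.81 ± 0.06) and the ETS factor ETV4 (0.62 ± 0.05) were also called, while ETV5 (0.49 ± 0.05), MYC (0.27 ± 0.06) and DUSP4 (0.03 ± 0.06, near the floor at 4.2 log2) were not. Of 14 EGF family genes 2 rose, the ligands HBEGF and NRG1 (1.22 ± 0.06), and the receptor EGFR was uncalled at 0.04 ± 0.07.

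AP-1 and immediate early genes had a median of 0.35, with 5 of 24 higher, 0 lower and 20 above 0. The called members were EGR1, MAFF, JUN (0.84 ± 0.06), KLF6 (0.67 ± 0.05) and ATF3 (0.59 ± 0.07). JUN measured 10.34 and 10.24 against 11.12 and 11.13, and 3 of its other probe sets were called too. FOSL1 (0.46 ± 0.06) did not pass. Probe sets disagreed for FOS and ATF3. The brightest FOS probe set was not called (0.20 ± 0.13), while 2 dimmer ones were called higher, at 1.34 and 0.72. The brightest ATF3 probe set lost its call when control replicate 2 or sgBAP1 replicate 1 was left out (0.54 each), while 2 others were called higher at 1.501 and 0.67, 3 had the opposite sign without a call, and the mean of all was 0.42 without a call. Among 19 KLF and SP factors 3 rose and 2 fell. The rises were KLF4 (4.54 and 4.33 against 5.62 and 5.59), KLF10 (0.65 ± 0.07) and SP100, a nuclear body protein of another family (0.98 ± 0.15). SP1 (-0.87 ± 0.06) and KLF12 (-0.84 ± 0.12) fell.

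Growth arrest and stress genes rose in 5 of 22 and fell in 1. GADD45A led, followed by the CDK inhibitor CDKN1A (9.59 and 9.60 against 10.87 and 10.77), GADD45G (0.81 ± 0.08), the sestrin SESN2 (0.71 ± 0.07) and the kinase PLK2 (0.69 ± 0.07). The CDK4/6 inhibitor CDKN2D fell (-0.71 ± 0.08). GADD45B (-0.16 ± 0.07), CDKN1B (-0.05 ± 0.07) and MDM2 (-0.07 ± 0.05), the ubiquitin ligase of p53, were not called. Of 20 G1 cyclins, cyclin-dependent kinases and E2F factors 0 were called. Among them 11 had a limma adjusted p under 0.05 with changes below 1.5-fold, such as CCNE1 (0.43 ± 0.05). Over all genes 5050 of 18132 had an adjusted p under 0.05 at any fold, and 895 of these were called. Among 25 origin licensing genes the helicase subunit MCM6 fell (10.09 and 10.00 against 9.10 and 9.04), 6 lay above 0 and the median was -0.16. MCM2 was not called by its brightest probe set (-0.49 ± 0.06), but 2 of its other probe sets were called lower (-0.70 and -0.63).

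Chemokine genes rose in 5 of 21 cases and fell in 0, but 11 of the 21 lay below 5 log2 in both groups and the list median was 0.05. The rises were CXCL8, CCL20, CXCL1 (7.57 and 7.66 against 9.12 and 9.19), the monocyte attractant CCL2 (7.59 and 7.48 against 8.53 and 8.48) and CCL5 (0.66 ± 0.11). The CCL5 call was lost when control replicate 2 (0.58) or sgBAP1 replicate 1 (0.55) was left out. CXCL2, a close relative of CXCL1, was just short of a call (0.58 ± 0.09). Of 28 cytokine genes 2 rose, IL11 and IL32 (1.16 ± 0.07). IL6 (5.17 and 5.32 against 4.87 and 5.38), IL1B (0.13 ± 0.05), IL1A (-0.23 ± 0.11) and LIF (0.16 ± 0.05) did not pass.

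NF-kB is held in the cytoplasm by inhibitors whose genes it switches on itself. Of 20 NF-kB genes 4 rose, 0 fell, 17 lay above 0 and the median was 0.26. The rises included 1 such inhibitor, NFKBIA (9.79 and 9.76 against 10.45 and 10.48). The others were the feedback genes NFKBIZ (0.95 ± 0.07) and TNFAIP3 (6.69 and 6.71 against 7.65 and 7.52) and the adaptor TRAF1 (0.86 ± 0.08). Among the subunits NFKB2 (0.53 ± 0.08), RELA (0.27 ± 0.06) and NFKB1 (0.24 ± 0.05) stayed below 1.5-fold. In the Toll-like receptor list 4 of 25 rose: LY96, the interleukin-1 receptor IL1R1 (0.89 ± 0.10), the kinase IRAK2 (0.73 ± 0.07) and the adaptor TICAM1 (0.64 ± 0.07), whose call was lost without control replicate 2 (0.54). The receptor that LY96 serves, TLR4, measured 4.30 and 4.26 against 4.13 and 4.26, and its co-receptor CD14 4.13 and 4.32 against 4.14 and 4.04. Both lay near the floor of the signal, and neither was called.

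Interferon factors were mixed, with IRF1 (6.57 and 6.47 against 7.40 and 7.39), SOCS1 (0.79 ± 0.09) and SOCS2 (0.61 ± 0.07, a call lost without sgBAP1 replicate 2) higher and STAT5B lower (-0.73 ± 0.06) among 25. The interferon gene IFNB1 stayed near the floor (3.56 and 3.78 against 3.55 and 3.60), and IRF9, part of the interferon-activated factor, was uncalled at -0.06 ± 0.05. Of 16 sensors of cytosolic nucleic acid 2 rose, the RNA sensors RIGI (7.71 and 7.69 against 8.50 and 8.56) and IFIH1 (0.72 ± 0.10). Antigen presentation and NK ligand genes had a median of 0.29, with 4 of 28 higher and 0 lower. The class I genes HLA-B (10.41 on both control arrays against 11.37 and 11.40) and HLA-E (9.62 and 9.63 against 10.57 on both sgBAP1 arrays) rose with HLA-F (0.74 ± 0.09) and the NKG2D ligand ULBP2 (1.15 ± 0.08). Class I genes share sequence, so their probe sets may not tell them apart. Averaged over probe sets HLA-F (0.21) and ULBP2 (0.33) were no longer called, and the 2 other ULBP2 probe sets, near the floor, had the opposite sign. The class I light chain B2M (0.46 ± 0.05) and the checkpoint ligand CD274 (-0.08 ± 0.12) were not called.

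Death receptor and BCL2 family genes had a median of 0.29, with 6 of 33 higher and 0 lower. The survival gene BCL2A1 measured 8.70 and 8.73 against 10.18 and 10.16. The BH3-only gene PMAIP1 measured 7.50 and 7.32 against 8.41 and 8.40. The list thus held rises of both a protective and a killing member. Receptor genes made up the rest: the decoy TNFRSF10D (0.99 ± 0.06), TNFRSF21 (0.97 ± 0.07) and the TRAIL receptors TNFRSF10A (0.82 ± 0.09) and TNFRSF10B (0.61 ± 0.06). TNFRSF10B lost its call without control replicate 2 (0.56). BBC3 (-0.03 ± 0.06) and BAX (-0.31 ± 0.06) did not pass.

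**Figure D3:**
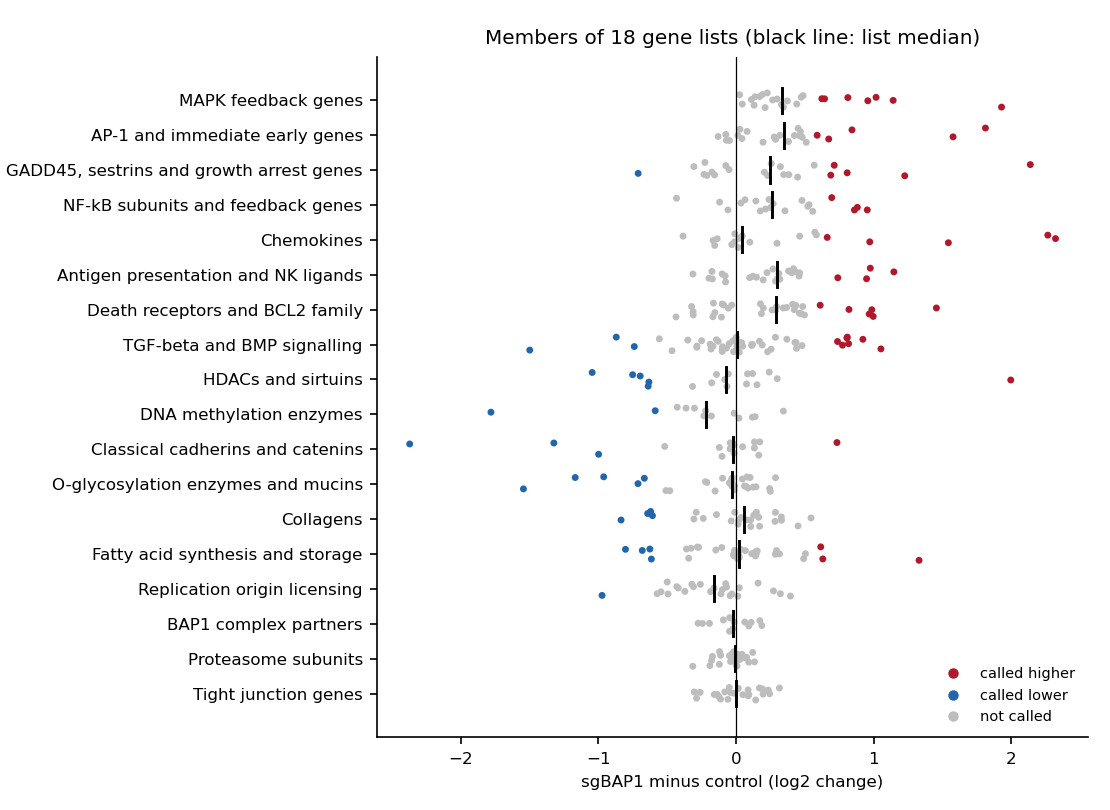
Log2 change (sgBAP1 minus control) of each measured member of 18 of the gene lists, with called members in colour and the list median as a black line. All 24 MAPK feedback genes lie above 0, deacetylases and cadherins hold called members on both sides, and proteasome, tight junction and BAP1 partner genes hold none.

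TGF-beta and BMP genes split, with 7 of 51 higher and 3 lower around a median of 0.01. The rises included the ubiquitin ligase SMURF2 (10.17 and 10.15 against 11.20 and 11.22), the BMP antagonist NOG (0.92 ± 0.08), the ligands BMP6 (0.82 ± 0.06) and GDF15 (0.81 ± 0.06) and the SMAD corepressor SKIL (0.81 ± 0.07). The falls were SMAD6, the activin subunit INHBB (-0.87 ± 0.06) and the co-receptor TGFBR3 (-0.74 ± 0.07). TGFBR2 (0.26 ± 0.05), SMAD4 (-0.18 ± 0.10), SMAD7 (-0.07 ± 0.07) and ID1 (-0.02 ± 0.06) were not called. In the Notch and Hedgehog list 2 of 32 rose, the ligand JAG1 (0.98 ± 0.06) and HES2 (0.70 ± 0.09, a call lost without control replicate 2), and 4 fell. The falls were LFNG, the Notch feedback gene NRARP (-0.78 ± 0.06) and the Hedgehog targets PTCH1 (8.13 and 8.03 against 6.96 and 6.77) and GLI1 (-0.61 ± 0.07). HES1, the usual Notch readout, was at 0.34 ± 0.05 without a call, although 1 of its other probe sets was called higher.

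Adhesion and matrix genes also moved in both directions. Among 17 cadherins, protocadherins and catenins CDH1, PCDH18 and PCDH7 (-0.998 ± 0.05) fell and PCDH9 rose (0.73 ± 0.06). CDH2, which often replaces CDH1 in mesenchymal cells, measured 6.27 and 6.34 against 6.24 and 6.13, a change of -0.12 ± 0.07 without a call. Among 19 EMT transcription factors ZEB2 rose from near the floor (3.89 and 3.62 against 4.37 and 4.41), a call lost without control replicate 2 (0.49), and TWIST2 fell (-0.79 ± 0.06), with another probe set of opposite sign. SNAI1 (0.55 ± 0.08), ZEB1 (0.20 ± 0.06), SNAI2 (-0.07 ± 0.07) and TWIST1 (0.09 ± 0.12) did not pass. Of 24 tight junction genes 0 were called, with changes between -0.30 and 0.31. For CLDN1 (0.24 ± 0.05) 1 of the other probe sets was called higher. Desmosome and keratin genes held 1 rise, KRT15 (0.81 ± 0.06), and 1 fall, the desmosomal PKP2 (-0.65 ± 0.09), a call lost without control replicate 1 (-0.51).

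Collagens fell in 4 of 26 cases and rose in 0: COL5A2 (-0.83 ± 0.06), COL13A1 (-0.64 ± 0.06), COL18A1 (12.03 and 12.07 against 11.43 on both sgBAP1 arrays) and COL1A1 (-0.61 ± 0.06). The calls of COL13A1 and COL1A1 were lost without sgBAP1 replicate 2 (-0.57) and control replicate 1 (-0.58) respectively. The list median was 0.06. Matrix metalloproteinase genes rose in 2 of 21, MMP1 and MMP10 (3.46 and 3.31 against 4.09 and 4.20, near the floor). The urokinase and serpin list held 5 rises of 20 and 0 falls: the coagulation inhibitor TFPI (8.66 and 8.74 against 9.80 and 9.75), the urokinase receptor PLAUR (0.95 ± 0.10), SERPINI1 (0.89 ± 0.07), SERPINB8 (0.85 ± 0.14) and SERPINE2 (0.67 ± 0.06). The urokinase gene PLAU was just short by its brightest probe set (0.54 ± 0.05), and its 2 other probe sets were called higher (0.66 and 0.72). The matricellular genes THBS1 (1.05 ± 0.08) and CCN2 (0.90 ± 0.06) rose and the laminin chain LAMA5 fell (-0.70 ± 0.05) among 34 genes. The integrin ITGA2 (0.79 ± 0.05) rose and ITGA10 (-0.81 ± 0.06) fell among 20. ITGB8 was also called higher, from below the lower quartile of control values (3.60 and 3.52 against 4.42 and 4.31), with another probe set of opposite sign and a mean over probe sets of 0.35 without a call.

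In the list of O-glycosylation enzymes and mucins 5 of 29 genes fell and 0 rose, around a median of -0.03. They were the GalNAc transferase gene GALNT18 (8.50 and 8.44 against 7.06 and 6.79), the cell surface mucin MUC16 (5.87 and 5.58 against 4.51 and 4.60), ST6GALNAC2 (-0.96 ± 0.17), GALNT12 (-0.71 ± 0.07) and GALNT10 (-0.67 ± 0.06). MUC1 was not called (0.10 ± 0.07). Among 27 pancreatic and endodermal factors 3 rose: SOX17 (1.05 ± 0.07), GATA6 (6.49 and 6.38 against 7.49 and 7.32) and HHEX (0.70 ± 0.07). The ductal factor SOX9 (0.13 ± 0.05), FOXA2 (-0.20 ± 0.07) and PDX1, near the floor (0.14 ± 0.14), were not called.

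Metabolic genes were called in both directions. In the fatty acid list 3 of 34 rose and 4 fell. The lipid droplet coat gene PLIN2 measured 8.95 and 8.96 against 10.32 and 10.24, and the elongase ELOVL4 (0.63 ± 0.05) and the carrier FABP5 (0.61 ± 0.06) were also higher. SREBF1 (-0.80 ± 0.08), which drives lipid synthesis genes, was lower with the desaturases SCD (12.03 and 11.98 against 11.32 on both sgBAP1 arrays), FADS2 (-0.63 ± 0.07) and FADS1 (-0.61 ± 0.06). The FADS1 call was lost without control replicate 1 (-0.57), and that of FABP5 without control replicate 2 (0.56) or sgBAP1 replicate 2 (0.58). In the hypoxia list 3 of 25 rose and 3 fell: EPAS1 (0.61 ± 0.05), PFKFB3 (0.64 ± 0.05) and ANGPTL4 (0.66 ± 0.05) against DDIT4, PFKFB4 (-0.86 ± 0.07) and PDK1 (-0.70 ± 0.07). PFKFB3 and PFKFB4, which make the same activator of glycolysis, thus changed in opposite directions. Of 30 mTOR genes the GTPase RRAGD rose (0.73 ± 0.06) and the inhibitor DEPTOR fell (7.23 and 7.15 against 6.18 and 6.06).

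Stress genes downstream of ATF4 rose in 3 of 27 cases, DDIT3 (6.64 and 6.74 against 8.24 and 8.14), the cystine transporter SLC7A11 (0.73 ± 0.05) and CEBPB (0.71 ± 0.06). ATF4 itself (-0.04 ± 0.05) and its targets ASNS (-0.08 ± 0.05) and TRIB3 (0.48 ± 0.06) were not called. Of 24 endoplasmic reticulum chaperones and heat shock genes 0 were called, and HSPA5 stood at 0.01 ± 0.05, with 1 other probe set called lower. Of 27 proteasome subunits 0 were called, with changes between -0.31 and 0.13 and a median of -0.01. Clock genes were likewise uncalled in 16 of 16 cases, with PER1 highest at 0.37 ± 0.07.

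Probe sets of the same gene did not always move together. Of the 421 genes higher with the guide 317 had several probe sets, and in 176 of these another was called in the same direction. Of the 474 lower 353 had several, and in 148 another was called lower. Another probe set had the opposite sign in 65 and 109 genes, with a call of its own in 2 and 2. Of the 189 called genes named by rule 62 lost their call when the probe sets of a gene were averaged. Among the leading genes these were HDAC9 (0.55), RET (-0.45), GPC6 (-0.32) and EPHA7 (-0.31).

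Signalling genes that lost it were CCL5, IL1R1, IRAK2, IRF1, SOCS1, SOCS2, STAT5B, IFIH1, KLF6, SP100, KLF12, ETV4, TGFBR3, JAG1, HES2, PTCH1 and NRARP. Adhesion and matrix genes that lost it were PCDH9, PCDH7, ZEB2, TWIST2, PKP2, SERPINE2, COL5A2, COL13A1, COL18A1, THBS1, LAMA5 and ITGA10. Metabolic genes and factors that lost it were PFKFB3, EPAS1, PFKFB4, PDK1, RRAGD, SREBF1, SCD, FADS2, SOX17, AQP3 and H2BC11. For these genes the call given is that of the brightest probe set. In some of them other probe sets were called in the same direction, 3 for SP100 and 2 each for JAG1 and SERPINE2. Others, such as IL1R1 and IRAK2, had no such probe set.

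The guide effect was then set beside that in the irradiated arrays, sgBAP1 + IR against IR, which share no array with the main comparison. There 180 genes were higher and 204 lower (0.993% and 1.13% of genes). Of the 421 genes higher without IR 131 were called higher with IR, which is 31.1% of the first list and 72.8% of the second, and 0 were called lower. Of the 474 lower genes 142 were called lower with IR (30.0% and 69.6%) and 0 higher. Signs matched in 411 of 421 (97.6%) and 470 of 474 (99.2%).

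Sizes depended on which comparison chose the genes. In the 421 genes the median change was 0.77 without IR and 0.45 with it, and in the 474 genes -0.72 and -0.48. In the 180 genes chosen with IR the median was 0.75 with IR and 0.84 without, and in the 204 genes -0.71 and -0.72. Choosing genes by 1 effect favours large values of that effect. ULBP2 (1.15 without and 1.55 with IR), GSTA4 (-1.26 and -1.46), MUC16 (-1.17 and -1.17), S100A16 (1.07 and 1.09) and MCM6 (-0.97 and -0.99) were at least as large with IR.

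The difference between both guide effects, fitted as an interaction, was called in 28 genes that were more positive with IR and 56 that were more negative (0.154% and 0.309%). Of these 84 genes 66 belonged to those called without IR, and in all 66 the effect was smaller in irradiated cells. Choosing genes by a large effect without IR favours that outcome. Of the other 18 genes 8 were called with IR only and 10 in neither comparison. EGR1 measured 6.50 and 6.27 in control, 8.24 and 8.15 in sgBAP1, and its guide effect was 1.81 without and 0.39 with IR (difference -1.42, limma adjusted p = 0.0238). H2BC4 went from 1.64 to 0.27, the actin-associated FILIP1L from 1.38 to 0.13 and H2BC11 from 1.18 to 0.12. On the other side, LFNG went from -1.49 to -0.41, CACNA1A from -1.03 to -0.15 and AQP3 from -0.75 to 0.19. SNAI2 differed the other way, with -0.07 without IR and a rise of 0.87 with it. These calls are fragile: limma made none of them with any 1 of the 8 arrays left out. Then 84 of 84 kept their sign, an outcome favoured by choosing them for a large difference in the same arrays.

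**Figure D4:**
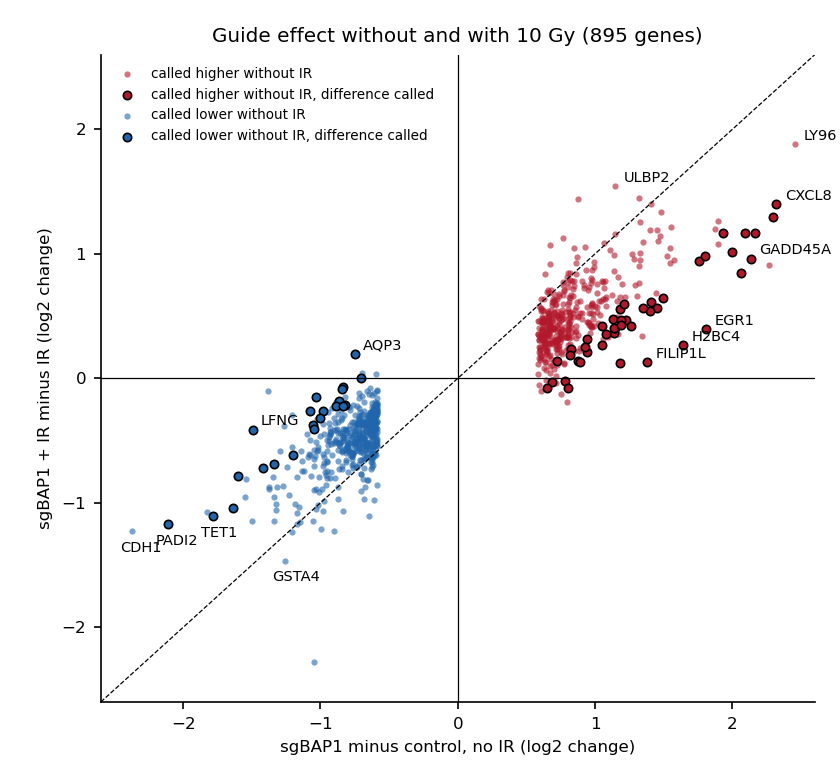
Guide effect without irradiation (horizontal axis, log2) and among irradiated arrays (vertical axis, log2) for the genes called without irradiation; outlined points have a called difference and the dashed line marks equal effects. Nearly all points keep their sign, and all 66 outlined points lie between the dashed line and 0 or just past 0. Choosing genes by the effect without irradiation favours that position.

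Promoter letters of the called genes were described next, over the 14425 genes with a RefSeq window from 250 bases before to 50 after the start (80.5% of the genes higher, 83.3% of those lower and 79.6% of all). Both strands were searched. AP-1 matches occurred in 9.73% of the 339 windows of higher genes, 1.77% of the 395 of lower genes and 5.80% of all. Matches to the TATA box letters TATAAA, counted at any place in the window, showed the same order (13.6%, 4.05% and 9.19%). So did the ISRE (5.31%, 1.27% and 3.08%). NF-kB sites were in 9.73%, 5.82% and 6.47%, and serum response elements in 3.24%, 1.52% and 1.25%. E2F sites (TTTCCCGC) ran the other way, with 0.885%, 3.04% and 2.22%. The CRE (3.24%, 3.29% and 2.66%), the C/EBP-ATF site TGATGNAA (2.36%, 1.77% and 2.57%), the TEAD site GGAATG (13.3%, 9.87% and 11.6%) and the E-box CACCTG (18.9%, 21.8% and 19.6%) differed less. Among the 50 largest rises with a window 24% held an AP-1 match and 26% a TATAAA match. The median GC content was 66.0% in higher, 66.7% in lower and 63.0% in all windows, and 9.44%, 3.80% and 15.9% of windows had under 5 CpG. These shares are descriptions without a test.

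**Figure D5:**
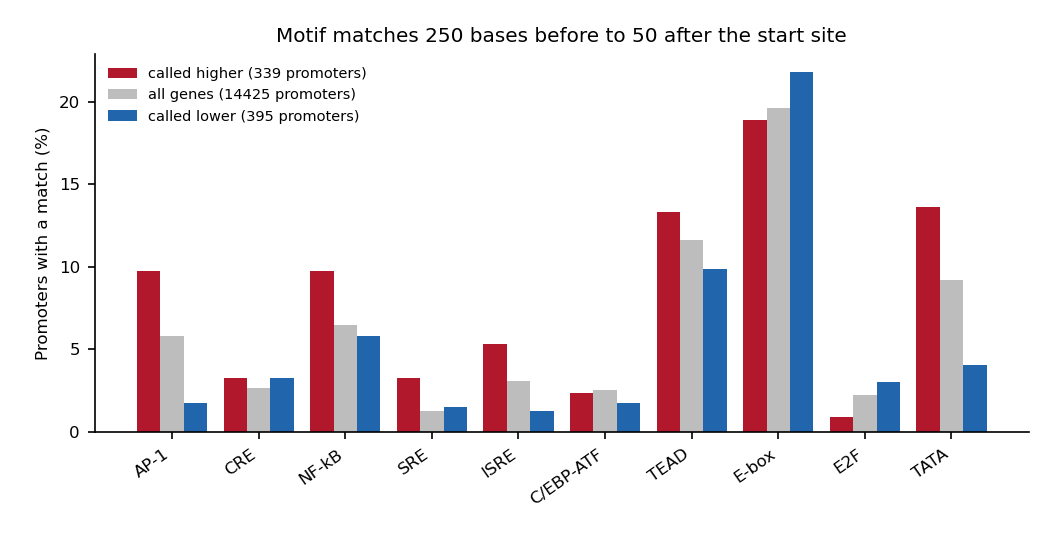
Share of promoter windows (percent, vertical axis) with a match to each motif among genes called higher, all genes and genes called lower. AP-1, TATA and ISRE shares are highest for genes called higher and lowest for genes called lower, and E2F runs the opposite way.

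Gene order along chromosomes showed little structure. Median changes by chromosome lay between -0.026 and 0.028, and the share of genes called lower was highest on chromosome 2 (4.59%). Over 17529 windows of 25 neighbouring genes the medians ran from -0.311 to 0.204, and 1 window lay past 0.3 in either direction, on chromosome 19 from CFD to DAZAP1, where 5 genes fell. Around BAP1 on chromosome 3 the 20 measured genes on each side had a median of -0.001, with 20 of 40 below 0 and 0 higher. The single fall among them, chosen after its values were seen, was PHF7 (-0.75 ± 0.11), the measured gene next to BAP1 in RefSeq order. Gene order came from RefSeq on GRCh38.p14, since the sources used here name no build for the array design.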

How the data were processed

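RNA of 8 PANC1 samples was hybridised to Affymetrix PrimeView arrays. The authors deposited log2 values made with RMA (per the labels), which corrects background, quantile-normalises arrays and summarises each probe set. They hold no counts or detection flags, so the number of arrays limits precision. Of 49395 probe sets 102 controls were left out, and 44988 of the rest had a single symbol, 1832 several and 2473 none.

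Groups came from the genotype and treatment labels. Fits used limma 3.58.1 (R 4.3.3, lmFit and eBayes, 4 group means, 4 residual degrees of freedom) without covariates or a filter on dim values. Errors are limma standard errors. The script was tested on simulated data with known changes. The rule for naming genes took the 25 largest called rises and falls reaching 5 log2 in a group, up to 5 called members per list and direction, defining list members whatever their value, and the 10 largest called interactions each way. The members, lists and rule were chosen with earlier results of these data known. Promoters and gene order came from RefSeq tables. Alternatives were normalisation, filter, threshold, test, variance prior, probe set summary and left-out arrays.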

Additional observations from a re-analysis of the deposited data

Results flagged for a closer look

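The guide effect differed by the interaction test between irradiated and non-irradiated cells in 42 of the named genes. Values are the log2 effect with IR minus that without. A negative value means a smaller rise, or a turn to lower levels, with IR. None of these calls was made by limma when any 1 of the 8 arrays was left out. Each gene kept its sign, which choosing genes by a large difference in the same arrays favours.

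Among signalling and stress genes the difference was -1.42 for EGR1, -1.18 for GADD45A, -0.92 for HBEGF, -0.85 for DDIT3, -0.82 for SGK1, -0.81 for RGS2, -0.76 for DUSP5 and -0.76 for CDKN1A. Among secreted and matrix genes it was -1.22 for MMP1, -0.997 for GAL, -0.92 for CXCL8, -0.79 for THBS1, -0.72 for TFPI, -0.76 for SERPINI1 and -0.68 for VEGFC. Histone and chromatin genes gave -1.37 for H2BC4, -1.06 for H2BC11 and -0.98 for HDAC9. The other negative values were -1.25 for FILIP1L, -0.996 for MAP3K7CL, -0.88 for SKIL, -0.73 for IRF1, -0.64 for SMURF2 and -0.62 for KRT15.

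Positive values belonged mainly to genes that fell with the guide. They were 1.08 for LFNG, 0.94 for PADI2, 0.88 for CACNA1A, 0.82 for CELSR2, 0.81 for LXN, 0.77 for COL5A2, 0.76 for FRAT2 and 0.72 for S100A4. RIBC2 differed by 0.70, SLC6A6 by 0.69, PFKFB4 by 0.68, TET1 by 0.67, CCDC85B by 0.65, HDAC6 by 0.64 and DDIT4 by 0.59. AQP3 (0.94), BTNL9 (0.96) and SNAI2 (0.94) had a guide effect above 0 in irradiated cells.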

How the results depend on the processing

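No paired analysis was possible because each array's label carries a letter of its own and no replicate number. Of the 189 named genes called with the guide 0 changed sign under any alternative. Settings that altered only the test, threshold, variance prior or filter kept the same difference, so its sign could not change there. With an array left out, choosing called genes favours a kept sign. Calls were lost more often: an equal-variance t-test at an unadjusted p under 0.01 lost 46 of the 189. After Benjamini-Hochberg that t-test lost 185 and kept 4. Under an equal-variance t-test at an unadjusted p under 0.01, a test the study names for its statistics in general and not for the arrays, the guide called 638 probe sets higher and 701 lower, or 269 and 307 genes, and with IR 212 and 262 probe sets, or 108 and 109 genes, with 73 higher and 64 lower genes shared. After Benjamini-Hochberg that test called 18 and 16 probe sets, or 10 and 7 genes, and with IR 0 and 0 genes (0 and 0 probe sets, 0 shared), against 167 and 190 genes at an unadjusted p under 0.05 and 180 and 204 genes by limma. Averaging a gene's probe sets gave 291 higher and 270 lower genes, with IR 115 and 113, shared 83 and 72, and 62 of the 189 named calls were lost. For the interaction, genes and probe sets higher were 43 and 91 without dim probe sets, 58 and 149 at an unadjusted p under 0.01, 61 and 164 with a trended prior, and 18 genes with probe set means. Those lower were 94 and 270, 108 and 335, and 111 and 361 under the first 3 of these settings.

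Leaving out each array in turn gave 408 to 456 genes higher and 428 to 542 lower for the guide, and 0 to 0 genes and probe sets for the interaction, where the main count of 84 genes rests on all 8 arrays. Outside the genes already described, calls were lost for ALDH6A1 (-0.51 without sgBAP1 replicate 2) and SLC7A2 (0.62 without control replicate 2, 0.56 without sgBAP1 replicate 1), and under quantile normalisation also for COL1A1 (-0.57), GLI1 (-0.58) and ALDH6A1 (-0.58). A further quantile normalisation shifted the median of all probe sets by 0.002 and gave 51.2% of calls higher. LY96, TLR4, MMP1, MMP10, ZEB2, ITGB8, KLF4 and ANKRD1 in control lay near the floor of the signal, where changes are compressed. So did ST6GALNAC2, EPHA7, MUC16, PCDH7 and SMAD6 in sgBAP1, and this list is not complete.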

Other observations

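Several called genes outside the groups above belong to transport and growth factor families. The efflux pump of cholesterol ABCA1 rose (6.71 and 6.60 against 7.50 and 7.53) while the related ABCA7 (-0.89 ± 0.08) and the drug exporter ABCC3 (-0.81 ± 0.06) fell, among 21 ABC transporters. The taurine transporter SLC6A6 measured 9.27 and 9.32 against 8.29 on both sgBAP1 arrays, and the heme oxygenase HMOX1 7.56 and 7.67 against 8.58 and 8.55. Of the other SLC6A6 probe sets 1 was called higher (0.59), and the mean over its probe sets was -0.19 without a call. Averaging also ended the calls of ABCA1 (0.38), ABCA7 (-0.43) and ABCC3 (-0.18). Of 42 genes of the FGF, VEGF, PDGF and IGF axes 2 rose, VEGFC (0.93 ± 0.07) and FGF2 (0.70 ± 0.09, and 0.24 without a call when averaged over probe sets). WNT genes were called in 3 of 44 cases, with the receptor FZD8 higher (0.81 ± 0.06) and FZD2 (9.95 and 9.86 against 8.95 on both sgBAP1 arrays) and the co-receptor LRP5 (-0.77 ± 0.06) lower. The target AXIN2 (-0.39 ± 0.10) and the inhibitor DKK1 (0.15 ± 0.05) were not called.

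YAP1 (0.05 ± 0.08) and WWTR1 (-0.11 ± 0.05), the coactivators of the Hippo pathway, did not pass, and 2 of 27 Hippo genes rose, ANKRD1 from near the floor (3.91 and 3.90 against 5.14 and 4.74) and VGLL3 (0.84 ± 0.08, and 0.35 without a call when averaged over probe sets). Of the other YAP1 probe sets 2 were called higher. S100A16 (1.07 ± 0.07) and S100A3 (0.86 ± 0.10) rose and S100A4 (9.96 and 9.88 against 8.94 and 8.95) fell among 18 S100 genes. The aldehyde dehydrogenases ALDH5A1 (-1.03 ± 0.08) and ALDH6A1 (-0.61 ± 0.07) fell among 19 genes, and ALDH1A3 was not called (0.10 ± 0.06). The linker histone gene H1-10 fell (10.64 and 10.66 against 9.94 and 9.95) among 11 histone variant and linker genes, without a call when averaged over probe sets (-0.36).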
